A study of Mus musculus with 100 samples.

Results

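The loci of 9 genes that encode interferon regulatory factors (IRFs) and signal transducers and activators of transcription (STATs) were followed across all the chromatin immunoprecipitation sequencing (ChIP-seq) tables of the study: Irf1, Irf2, Irf4, Irf5, Irf7, Irf9, Stat2, Stat3 and Stat5a. Every region whose listed nearest gene was one of these was taken, with no selection on the counts, which gave 652 of 610301 regions and 9 of 18524 genes. Irf2 had 238 regions over the 15 tables, Irf4 had 92, Irf5 had 91, Irf1 had 75, Stat3 had 62 and Irf7 had 40, while Irf9 and Stat5a had 21 each and Stat2 had 12. The nearest gene was set by the nearest transcription start site (TSS), so a region listed under one gene can lie inside another, and regions of one gene share a locus and are not replicates.

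IRFs bind interferon-stimulated response elements and STATs bind gamma-activated sequences. In macrophages, Toll-like receptor 4 (TLR4) signalling through its adaptors activates NFκB and AP-1 and induces type I interferon, and the interferon receptor then acts through JAK kinases on the ISGF3 complex, which contains STAT2 and IRF9. IRF1, IRF5 and IRF7 activate inflammatory and interferon genes, IRF2 is mostly an antagonist of IRF1 at shared elements, and IRF4 is an inducible factor of lymphoid and myeloid cells. STAT3 mediates signals of IL-6 and IL-10 family cytokines, and STAT5A those of GM-CSF and other cytokines.

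The study asked how TLR4 signalling changes the binding of the corepressor NCoR, its partner histone deacetylase HDAC3 and the coactivator PGC1β in C57Bl6 bone marrow-derived macrophages (BMDMs), with 2 libraries per group throughout. Cells received vehicle (Veh) or the TLR4 agonist Kdo2-lipid A (KLA, 6 h where the labels give a time). The p300 controls are titled Veh but their library names read KLA0h, while those of NCoR, HDAC3, p65, Fosl2 and PU.1 read Veh6h. All are called vehicle here. Wild type cells were profiled for NCoR, HDAC3 and PGC1β, for ERK1 (a kinase), p300 (a histone acetyltransferase), p65 (a subunit of NFκB), Fosl2 (of the AP-1 family) and for PU.1, which specifies macrophages. PGC1β was also profiled in Wild type cells with DMSO and vehicle, DMSO and KLA, or the ERK inhibitor LY3214996 (ERKi) and KLA, and NCoR with ERKi and KLA. H3K27ac, the acetylated form of histone H3 found at active regulatory DNA, was profiled with vehicle and KLA in NCoR flox/flox BMDMs (labelled WT) and NCoR flox/flox, LysMCre BMDMs (NKO). It was also profiled with vehicle and KLA in PGC1b flox/flox BMDMs and PGC1b flox/flox, LysMCre BMDMs, and in Wild type BMDMs with DMSO and vehicle, DMSO and KLA, or the HDAC3 inhibitor RGFP966 and KLA. The LysM promoter drives Cre in myeloid cells, and H3K27ac tags over the deleted genes do not test the deletion. ERK1 and p300 were also profiled in Wild type cells labelled bone marrow cell on day 0 and on day 4 of osteoclast differentiation in culture with M-CSF and RANKL. In the ERK1 set the library names mark both day 0 libraries and day 4 replicate 1 as NCoRWT. The name of day 4 replicate 2 lacks that mark, reads rep3 and carries a later date code. Ages of the animals are not in the labels used here.

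Library totals ran from 4.296 to 21.5 M tags, of which 2.79% to 52.8% lay in the listed regions. The labels were checked on promoters of lineage genes: all 6 macrophage genes on the list had an H3K27ac region within 2 kb of the TSS in the PGC1b and RGFP966 tables, against 3 of 6 in the WT and NKO table, and none of the 3 T cell, 3 B cell or 3 fibroblast genes had one in any H3K27ac table or in either osteoclast table. All 3 osteoclast genes had ERK1 and p300 regions in the osteoclast tables, and 1 of them had an H3K27ac region in the WT and NKO table. Of the 3 plasmacytoid dendritic cell genes, 1 had a p300 region in the osteoclast table.

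Values are tags per 10 M library tags, given as replicate 1 and replicate 2. A change is given as a log2 fold change ± its standard error, and it was called when the adjusted p of edgeR's quasi-likelihood test was under 0.05 and the change was more than 2-fold. Ranges given as "without 1 library" are the lowest and highest log2 fold change when each library of the table was left out in turn. A group left with 1 library is then assumed to vary like the others. A change in tags over many cells does not tell apart more cells with the protein or mark from more of it per cell.

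The sequences shown first are those of the peaks on which the results turn, from the mm10 (GRCm38) reference, plus strand, 5′ to 3′. Capitals mark matches to the letters GGGNNNTNCC for NFκB (kappaB), TGANTCA for AP-1, GAGGAA for PU.1, GAAANNGAAA for an interferon-stimulated response element (ISRE) and TTCNNNGAA for a gamma-activated sequence (GAS), searched on both strands in the 200 bases around the centre of each region. A match on the minus strand reads as the reverse complement, as in TTCCTC for PU.1. The kappaB letters were found in 15.96% of all 52629 p65 peaks, the AP-1 letters in 28.8% of all 31283 Fosl2 peaks, the PU.1 letters in 55.7% of all 50690 PU.1 peaks, and the ISRE and GAS letters in 5.88% and 7.54% of all p65 peaks.
The p65 peak at the Irf1 promoter, with a GAS and a kappaB match, is shown as the promoter peak of p65 and NCoR:
Irf1 promoter, chr11:53769786-53770034: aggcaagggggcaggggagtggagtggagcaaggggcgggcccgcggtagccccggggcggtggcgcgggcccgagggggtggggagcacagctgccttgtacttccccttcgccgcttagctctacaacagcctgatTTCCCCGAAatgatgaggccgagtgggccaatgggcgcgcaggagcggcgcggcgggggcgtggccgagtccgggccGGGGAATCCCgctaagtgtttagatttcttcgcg
These 4 peaks lie at sites called higher with KLA in 6 or more of the factor comparisons. The Irf4 +82.3 kb peak holds a kappaB match on the minus strand:
Irf4 +82.3 kb, chr13:30831453-30831665: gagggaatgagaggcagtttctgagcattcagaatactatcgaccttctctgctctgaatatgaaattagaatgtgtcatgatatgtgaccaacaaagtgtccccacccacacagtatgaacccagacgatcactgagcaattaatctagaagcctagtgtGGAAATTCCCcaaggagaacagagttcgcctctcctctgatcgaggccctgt
Irf4 +70.9 kb, chr13:30820029-30820261: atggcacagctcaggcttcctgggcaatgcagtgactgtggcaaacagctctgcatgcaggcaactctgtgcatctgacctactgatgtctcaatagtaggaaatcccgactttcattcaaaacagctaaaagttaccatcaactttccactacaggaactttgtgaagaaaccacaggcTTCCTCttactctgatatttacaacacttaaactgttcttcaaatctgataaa
Irf5 +28.1 kb, chr6:29557218-29557458: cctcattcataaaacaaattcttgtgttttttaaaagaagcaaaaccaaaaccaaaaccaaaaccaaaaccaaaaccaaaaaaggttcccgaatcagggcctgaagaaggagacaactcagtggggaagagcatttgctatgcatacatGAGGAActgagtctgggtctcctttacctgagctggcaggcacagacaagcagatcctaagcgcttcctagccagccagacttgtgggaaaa
Stat5a +1.5 kb, chr11:100861904-100862109: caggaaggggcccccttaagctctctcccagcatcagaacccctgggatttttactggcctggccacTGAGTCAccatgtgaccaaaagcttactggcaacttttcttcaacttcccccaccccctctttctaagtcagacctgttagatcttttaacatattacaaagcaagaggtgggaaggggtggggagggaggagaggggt
The upstream Stat3 peak of p65 and p300 is shown because it had at most 1 tag per 10 M of p65 with vehicle:
Stat3 -7.4 kb, chr11:100946839-100947040: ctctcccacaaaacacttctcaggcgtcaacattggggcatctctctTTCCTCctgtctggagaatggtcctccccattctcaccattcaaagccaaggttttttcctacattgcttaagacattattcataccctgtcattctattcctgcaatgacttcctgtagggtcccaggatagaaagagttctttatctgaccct
The Irf1 +9.8 kb region carried the only called gain of PGC1β with the ERK inhibitor at these loci, and it holds no match, with 41.1% of its bases soft-masked as repeats:
Irf1 +9.8 kb, chr11:53780161-53780396: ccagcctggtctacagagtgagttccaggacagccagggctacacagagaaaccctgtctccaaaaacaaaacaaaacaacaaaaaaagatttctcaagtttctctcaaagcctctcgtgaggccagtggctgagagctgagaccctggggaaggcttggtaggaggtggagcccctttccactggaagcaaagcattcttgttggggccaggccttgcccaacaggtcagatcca
The Irf2 +52.4 kb peak lost every factor listed there, and its 3 PU.1 matches are shown in windows of 30 bases since RefSeq places untranslated exon sequence of a transcript there:
Irf2 +52.4 kb, chr8:46792036-46792065: tgtctgcttcttGAGGAAgatatgtgagtg
Irf2 +52.4 kb, chr8:46792069-46792098: taggagttgggaGAGGAAgggttgcttcag
Irf2 +52.4 kb, chr8:46792167-46792196: gacaacgcccagGAGGAAggaagagctggg
Windows of the same length show the ISRE match of the Stat2 promoter peak, the GAS match of the Irf9 promoter peak and the 2 PU.1 matches upstream of Irf7, which are the sites of the H3K27ac results:
Stat2 promoter, chr10:128270266-128270295: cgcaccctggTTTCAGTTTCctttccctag
Irf9 promoter, chr14:55604114-55604143: accacgtggtTTCTAGGAAatgcacctccc
Irf7 -2.6 kb, chr7:141269096-141269125: ctttaattagacGAGGAAagggaagtggct
Irf7 -2.6 kb, chr7:141268960-141268989: agctctctagctTTCCTCttagctacagtg

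KLA changed factor binding at these loci in both directions. The shares of NCoR and HDAC3 peaks called were near those of all peaks, and ERK1, Fosl2 and PU.1 were called at smaller shares than over all peaks. Of the 68 NCoR peaks, 19 rose and 11 fell, where 23.4% and 16.7% of all NCoR peaks did, with a median log2 fold change of 0.14 against 0.10 over all. HDAC3, the deacetylase that NCoR carries, rose at 19 and fell at 6 of 59 peaks against 27.5% and 11.3% of all (median 0.43 against 0.27). PGC1β rose at 8 and fell at 6 of 41 peaks, against 16.4% and 6.35% of all, and its median was -0.41 where that of all peaks was 0.06. In the separate experiment with DMSO, PGC1β rose at 12 of 62 peaks and fell at none, against 16.4% and 1.23% (median 0.37 against 0.45). For that count of 0, edgeR gave 19 of the 62 peaks an unadjusted p under 0.05 in either direction, and scaling by TMM gave 4 higher and 2 lower.

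p65 binding rose at 29 and fell at 6 of 63 peaks, against 57.0% and 5.43% of all p65 peaks (median 1.07 against 1.46). p300 rose at 20 and fell at 17 of 74 peaks against 42.1% and 12.9% (median -0.10 against 0.65), so that p300 losses were a larger share of these peaks than of all peaks and gains a smaller one. PU.1 rose at 2 and fell at 8 of 64 peaks against 4.53% and 21.7% (median -0.41 in both). Fosl2 rose at 2 and fell at 1 of 31 peaks against 11.4% and 4.19%, and ERK1 rose at 1 of 26 and fell at none against 10.3% and 2.53%. No test was made of these shares against the background. ERK1 had 5 of its 26 peaks at an unadjusted p under 0.05, and both TMM and the listed totals gave 1 higher and 0 lower, while DESeq2 called 1 in each direction.

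Library totals do not correct for a change in the share of tags in peaks, and TMM scaling over the regions of a table moved the median log2 fold change of all peaks by -1.22 for p65, -0.52 for p300, -0.44 for PGC1β with DMSO, -0.28 for HDAC3, -0.20 for ERK1, -0.11 for PGC1β and 0.42 for PU.1. It moved that of NCoR by -0.01. With TMM, members called higher and lower were 9 and 17 for p65, 15 and 27 for p300, 15 and 11 for HDAC3, 7 and 2 for PU.1, and 4 and 5 for Fosl2, so that the balance of these factors depends on the scaling. NCoR stayed at 19 and 11, and PGC1β had 8 and 8. Calls in both directions together also depended on single libraries. They dropped from 30 to 15 for NCoR without either KLA library, from 25 to 11 or 9 for HDAC3 without vehicle replicate 1 or 2, from 14 to 5 or 4 for PGC1β without vehicle replicate 1 or 2, and from 35 to 15 or 14 for p65 without KLA replicate 1 or 2.

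**Figure D1:**
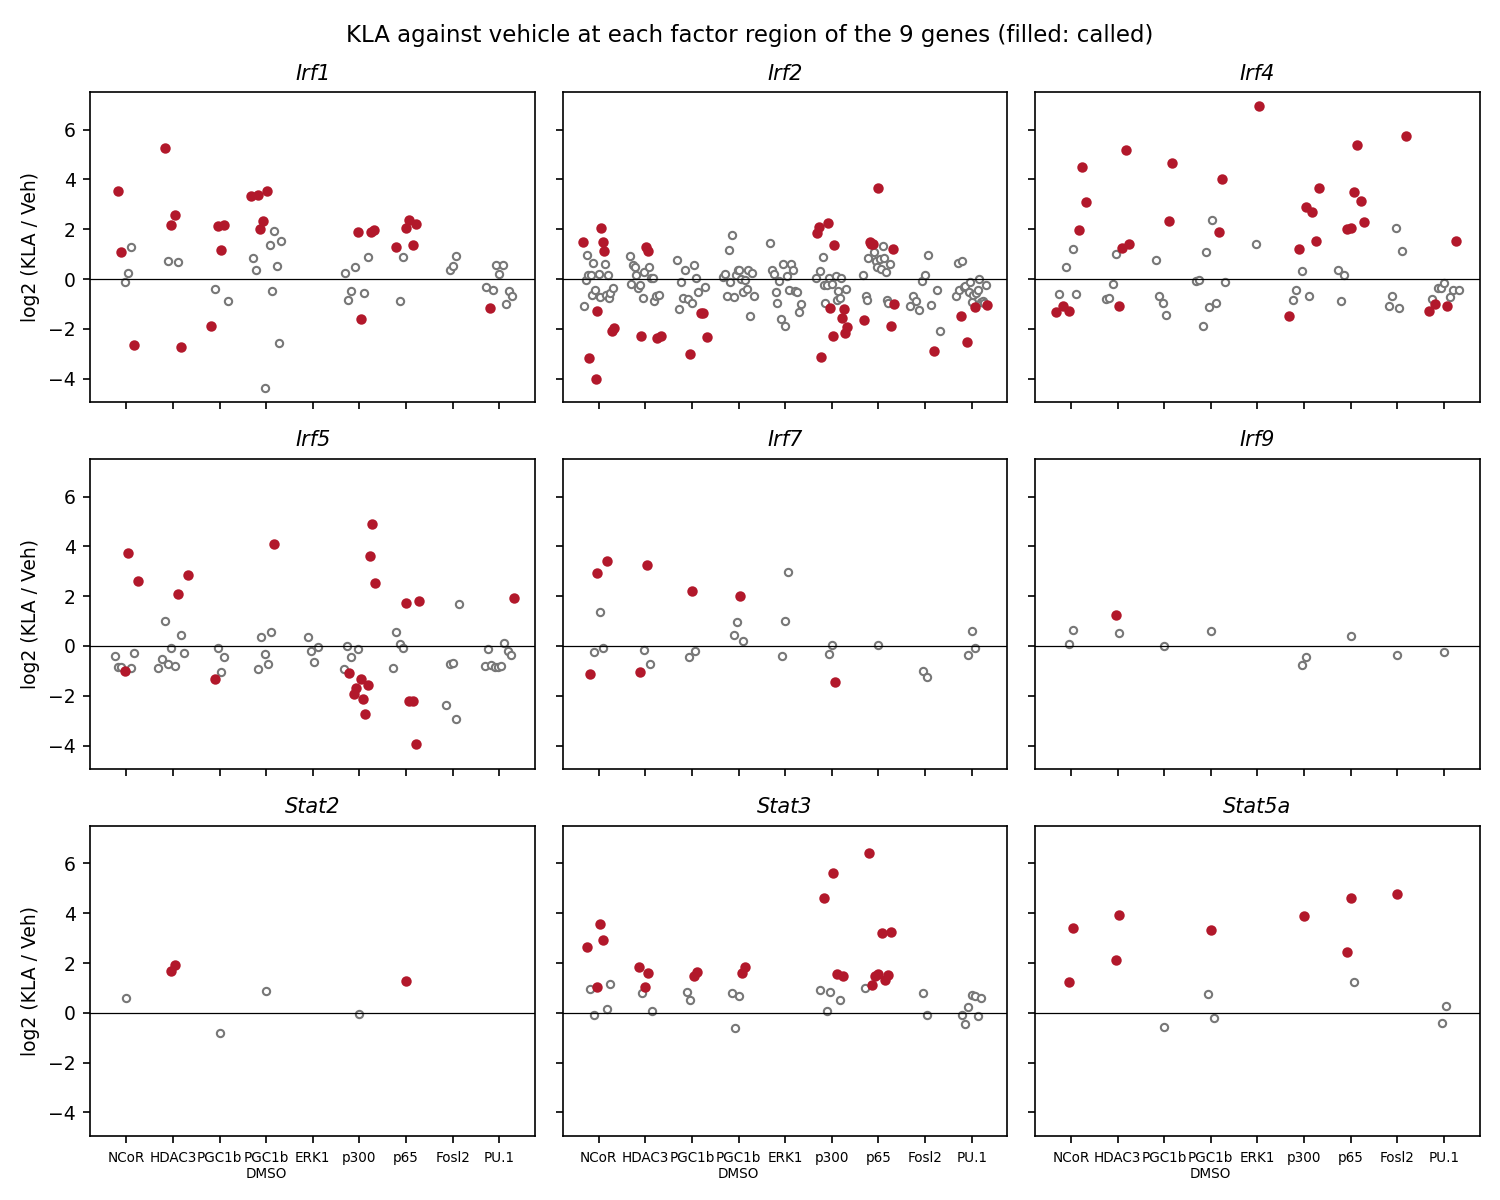
The log2 fold change of KLA against vehicle (y axis) at each region of the 9 genes, by factor (x axis, with PGC1b in 2 experiments), 1 panel per gene; each point is a region and filled red points were called. Called points lie on both sides of 0 for Irf1, Irf2, Irf4, Irf5 and Irf7, and above 0 only for Irf9, Stat2, Stat3 and Stat5a at the listed library totals.

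The balance of gains and losses was also counted by gene over the 9 KLA comparisons, in which 25.3% of all tested regions were called higher and 9.9% lower. The 9 genes together had 112 higher and 55 lower of 488. Stat3 had 23 calls higher and 0 lower among 48 tested regions, Stat5a 9 and 0 of 15, Stat2 3 and 0 of 7 and Irf9 1 and 0 of 11. With TMM these became 17 and 0 for Stat3, 8 and 0 for Stat5a, 2 and 0 for Stat2 and 0 and 1 for Irf9, and 1 of the Stat3 calls took the other sign. Irf1 had 21 higher and 5 lower of 61, and Irf4 24 and 8 of 72. Irf2, the antagonist, had 15 higher and 27 lower of 175, Irf5 had 11 and 12 of 70, and Irf7 had 5 and 3 of 29. With TMM the counts were 12 and 7 for Irf1, 21 and 10 for Irf4, 9 and 39 for Irf2, 9 and 21 for Irf5 and 4 and 5 for Irf7, so that the majority turned for Irf7. The comparisons do not share libraries across antibodies, but a site is counted once for each factor found there.

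Grouping overlapping regions of the 9 comparisons gave 124 sites, a grouping chosen after the values were seen. Of these, 52 were called only higher, 33 only lower, 38 in no comparison and 1 in both directions. Over all genes the shares were 39.1% only higher and 20.1% only lower, against 41.9% and 26.6% here. The site called in both directions was Irf5 +0.5 kb, where 2 p65 peaks chr6:29526916-29527159 and chr6:29527166-29527368 lie side by side. In 4 or more comparisons 6 sites (4.84%) were called higher and 3 (2.42%) lower, against 8.55% and 2.11% of the 115269 sites that the same grouping gave over all genes. Of the 124 sites, 28 were annotated intergenic and 23 to a transcript of another gene.

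**Figure D2:**
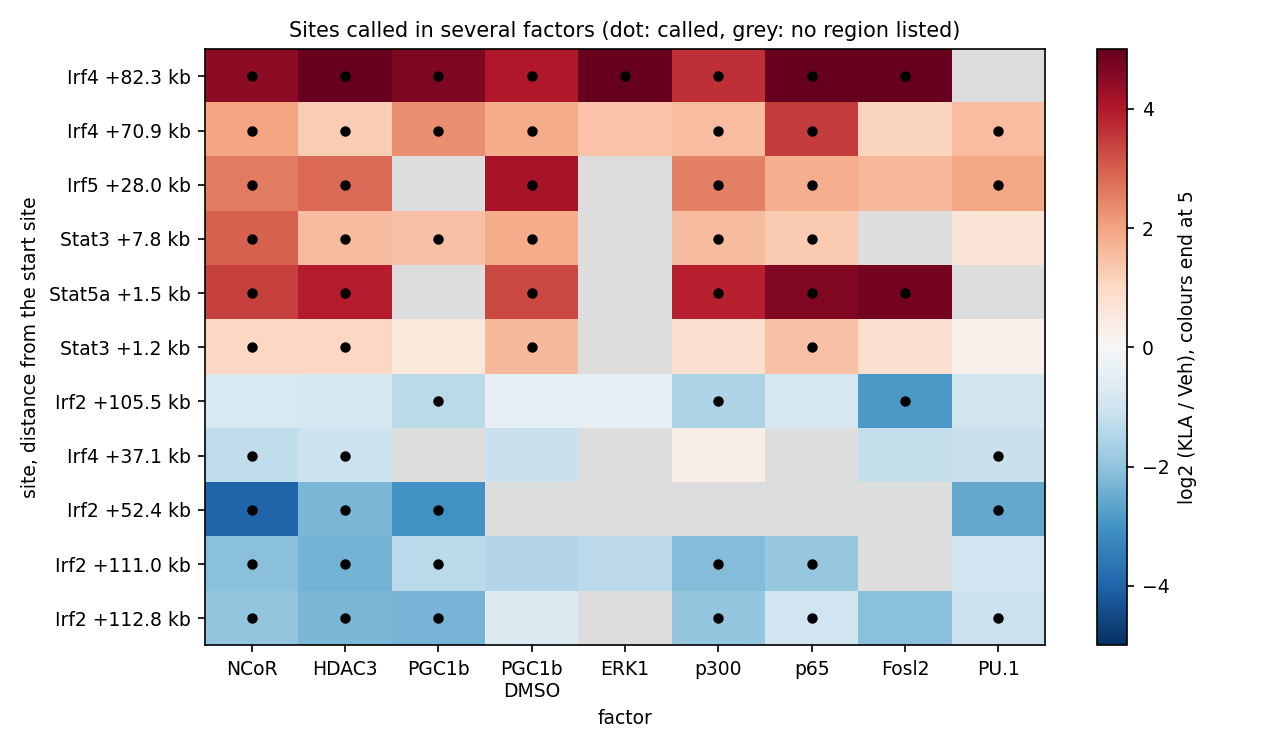
Log2 fold change of KLA against vehicle at the 11 sites called higher in at least 4 or lower in at least 3 of 9 comparisons (rows, with the distance from the start site in kb) for each factor (columns). Red is higher and blue lower, colours end at 5, a dot marks a call and grey marks factors with no region listed; the Irf4 +82.3 kb row has 8 dots in 8 regions and the Irf2 +52.4 kb row 4 dots in 4.

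IRF4 is an inducible regulator of macrophage and lymphocyte programmes, and 2 sites far downstream of its gene gained most factors. Both lie in introns of the neighbouring gene Exoc2. At the Irf4 +82.3 kb site all 8 regions listed were called higher (PGC1β counts in both of its experiments), which included HDAC3 with 2.91 and 3.32 tags with vehicle and 108 and 128 with KLA (5.19 ± 0.53, adjusted p = 2.4e-20). p65 there went from 5.25 and 0.932 to 132 and 142 tags (5.39 ± 0.48, adjusted p = 5.8e-06). In both factors the libraries with KLA were far above those with vehicle and the groups did not overlap.

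NCoR at the same site went from 8.36 and 0 to 95.6 and 96.1 tags (4.49 ± 0.63, adjusted p = 0.0004). PGC1β went from 0.588 and 0.930 to 30.6 and 14.3 (4.68 ± 0.82, adjusted p = 0.00049) and in the DMSO experiment from 2.44 and 0 to 35.5 and 17.9 (4.00 ± 1.01, adjusted p = 0.0065). The last call was lost without DMSO KLA replicate 1 (3.35 to 7.12 without 1 library). p300 rose as well, from 8.78 and 1.31 to 62.4 and 67.6 tags (3.65 ± 0.48, adjusted p = 7.3e-06).

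Fosl2 rose there from 1.41 and 2.10 to 48.9 and 160.2 tags (5.75 ± 1.12, adjusted p = 1.6e-05), with replicate 2 well above replicate 1 under KLA. ERK1 had no tag in either vehicle library and 18.4 and 21.8 tags with KLA, which is at least 10.1-fold higher against a floor of 3 tags over the vehicle group (adjusted p = 0.016). The ERK1 call was lost without either KLA library and the Fosl2 call without either vehicle library (4.63 to 6.36 without 1 library). The calls of HDAC3, p65, NCoR, p300 and PGC1β without DMSO held whichever library was left out, and all 8 held with TMM.

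At the Irf4 +70.9 kb site 7 of 9 regions were called higher. p65 went from 14.9 and 19.6 to 186 and 199 tags (3.48 ± 0.29, adjusted p = 3.7e-06) and PU.1, the macrophage lineage factor, from 35.2 and 32.4 to 92.2 and 103 (1.53 ± 0.18, adjusted p = 1.3e-13). At the listed totals most PU.1 peaks of these loci had values below 0 (49 of 64), with a median of -0.41, the same as over all PU.1 peaks. With TMM more PU.1 peaks of these loci were called higher than lower. NCoR rose from 28.7 and 49.4 to 147 and 157 (1.96 ± 0.29, adjusted p = 0.00057), PGC1β from 8.22 and 6.04 to 42.6 and 29.7 (2.32 ± 0.48, adjusted p = 0.0018) and p300 from 33.2 and 32.2 to 97.2 and 91.3 (1.52 ± 0.24, adjusted p = 4.7e-05). HDAC3 rose from 46.6 and 40.4 to 112 and 93.1 (1.25 ± 0.38, adjusted p = 0.0042), a call lost without either vehicle library (1.10 to 1.37). Fosl2 and ERK1 were above vehicle by 1.11 ± 0.78, adjusted p = 0.37 and 1.41 ± 0.79, adjusted p = 0.24, neither of which was called.

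Closer to the Irf4 gene both losses and gains were called. NCoR fell at -10.6 kb from 96.8 and 121 to 47.8 and 38.7 tags (-1.34 ± 0.28, adjusted p = 0.0035) and p300 from 79.6 and 60.5 to 25.1 and 25.4 (-1.47 ± 0.28, adjusted p = 0.0003). At +37.1 kb PU.1 fell from 152 and 105 to 60.8 and 60.5 (-1.09 ± 0.15, adjusted p = 3.5e-11), with NCoR and HDAC3 at -1.29 ± 0.33 and -1.07 ± 0.42. The NCoR call at -10.6 kb was lost without KLA replicate 2 (-1.49 to -1.17), and those at +37.1 kb without vehicle replicate 1 for PU.1 (-1.32 to -0.79), either KLA library for NCoR and either vehicle library for HDAC3. With TMM the PU.1 value was -0.68 and no longer called. Beside it, at +38.9 kb, p300 rose from 3.76 and 5.26 to 39.9 and 27.6 (2.89 ± 0.50, adjusted p = 0.00012), a call that held without any 1 library and with TMM. There p65 rose from 15.8 and 4.66 to 52.1 and 34.2 (2.06 ± 0.56, adjusted p = 0.0078), a call lost without either KLA library (1.45 to 3.19). At +20.1 kb p65 had 2.03 ± 0.45, lost without KLA replicate 1, and at +20.2 kb p300 had 1.19 ± 0.30, lost without vehicle replicate 1. With TMM these last 3 calls were lost (0.83, 0.83 and 0.67). The PU.1 region at the Irf4 TSS itself held 40.9 and 34.9 tags with vehicle and 26.2 and 32.5 with KLA (-0.37 ± 0.22, adjusted p = 0.13), and PGC1β had 12.9 and 12.1 with vehicle and 3.28 and 8.58 with KLA (-0.96 ± 0.64, adjusted p = 0.3), neither of them called. The sites at +37.1 kb, and the shared sites of the other genes, were taken up after their values were seen.

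IRF5 drives inflammatory cytokine genes downstream of Toll-like receptors, and its gains included a distal site within an intron of Tnpo3, with p300 losses over the gene. At the Irf5 +28.0 kb site 6 of 7 regions were called higher. PU.1 went from 51.2 and 41.7 to 189 and 169 tags (1.93 ± 0.14, adjusted p = 5.0e-27), the called gain of PU.1 with the lowest p among the 9 genes. HDAC3 rose there from 9.46 and 7.19 to 56.3 and 63.2 (2.83 ± 0.52, adjusted p = 6.7e-07) and NCoR from 7.17 and 12.9 to 58.3 and 65.02 (2.60 ± 0.44, adjusted p = 0.0011). p300 rose from 15.7 and 13.1 to 87.5 and 80.5 (2.54 ± 0.29, adjusted p = 2.1e-06). In all 4 factors both libraries with KLA stood above both with vehicle, and the calls held without any 1 library.

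PGC1β at the same site, profiled with DMSO, went from 5.68 and 0 to 63.2 and 61.0 tags (4.11 ± 0.73, adjusted p = 0.00027). p65 rose from 18.4 and 16.8 to 62.8 and 62.3 (1.82 ± 0.37, adjusted p = 0.0015), and with TMM to 0.60, which was not called. Nearer the gene p300 was called lower at 7 regions, from -2.4 to +11.2 kb, as at +10.2 kb with 20.7 and 26.3 and then 1.53 and 5.40 tags (-2.75 ± 0.59, adjusted p = 0.00072). Distances at Irf5 refer to the nearest of its annotated start sites, so the region at +0.3 kb is given as chr6:29529500-29529710. p300 there fell from 67.1 and 39.4 to 15.3 and 12.4 (-1.93 ± 0.37, adjusted p = 0.0003), and NCoR from 143 and 157 to 73.7 and 74.0 (-1.02 ± 0.22, adjusted p = 0.0043). The NCoR call there rests on the 2-fold threshold and was lost without KLA replicate 1 or 2 or vehicle replicate 2 (-1.08 to -0.96).

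At the Irf5 +0.5 kb site NCoR rose from 1.19 and 3.53 to 35.6 and 30.4 (3.74 ± 0.66, adjusted p = 0.0013), a call lost without either KLA library (3.18 to 4.67), and HDAC3 from 11.6 and 10.5 to 51.0 and 42.1 (2.08 ± 0.53, adjusted p = 0.0004), lost without either vehicle library (1.92 to 2.20). p65 fell within Tnpo3 at +15.7 kb from 11.4 and 12.1 to 0.668 and 0.684 tags (-3.94 ± 0.82, adjusted p = 0.0016), the p65 loss with the lowest p at these loci. That call was lost without either KLA library (-3.99 to -3.90). The region that overlaps the start site at chr6:29529103-29529319 had no called change in any of the factors, with p300 at 111 and 92.6 tags with vehicle and 81.3 and 67.6 with KLA (-0.45 ± 0.21, adjusted p = 0.066).

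IRF1 is induced by interferon gamma and by NFκB. Its promoter gained p65 and NCoR and, at a separate region, lost PGC1β in the experiment without DMSO. A stretch downstream of the gene gained several factors. At the promoter p65 went from 89.3 and 139 to 255 and 298 tags (1.28 ± 0.24, adjusted p = 0.00083) and NCoR from 83.6 and 84.7 to 187 and 167 (1.07 ± 0.22, adjusted p = 0.0027). The NCoR call was lost without KLA replicate 1 (0.99 to 1.15). The p65 call was lost without vehicle replicate 1 (0.99 to 1.63) and with TMM, where the value was 0.06. HDAC3 at the promoter had 90.2 and 90.7 with vehicle and 127 and 174 with KLA (0.72 ± 0.36, adjusted p = 0.096), and p300 had 124 and 97.2 with vehicle and 141 and 122 with KLA (0.25 ± 0.18, adjusted p = 0.24), neither of which was called. PU.1 at chr11:53769796-53770024 had 147 and 142 with vehicle and 122 and 112 tags with KLA (-0.31 ± 0.12, adjusted p = 0.013). PGC1β fell at chr11:53770292-53770559, downstream of the p65 and NCoR peaks that rose, from 15.3 and 16.7 to 6.55 and 2.86 tags (-1.87 ± 0.65, adjusted p = 0.043). TMM kept that call, and it was lost without KLA replicate 2 or either vehicle library (-2.46 to -1.28). A p65 region over the same bases, chr11:53770289-53770583, had 56.0 and 32.6 with vehicle and 21.4 and 26.7 with KLA (-0.88 ± 0.42, adjusted p = 0.084), not called. In the experiment with DMSO, PGC1β held 27.6 and 20.4 with vehicle and 51.3 and 35.7 with KLA at the promoter (0.83 ± 0.55, adjusted p = 0.32), with no call and the other sign.

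Farther upstream, at the Irf1 -1.1 kb region, HDAC3 went from 2.18 and 0 to 29.9 and 54.4 tags (5.27 ± 0.84, adjusted p = 5.8e-09) and NCoR from 0 and 3.53 to 20.2 and 22.8 (3.52 ± 0.82, adjusted p = 0.0057). PGC1β with DMSO went from 4.87 and 0 to 25.7 and 34.2 (3.32 ± 1.05, adjusted p = 0.029). The NCoR call was lost without either KLA library (2.58 to 7.67), and that of PGC1β with TMM or without either DMSO KLA library or DMSO vehicle replicate 2 (2.59 to 7.31).

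Downstream, p65 rose at chr11:53783326-53783526 from 34.1 and 15.8 to 108 and 102 tags (2.05 ± 0.37, adjusted p = 0.0006), though with TMM the value was 0.82, not called. At +13.4 kb p300 rose from 5.64 and 7.88 to 30.7 and 20.0 (1.90 ± 0.50, adjusted p = 0.0035), a call lost without KLA replicate 1 (1.56 to 2.17), and PGC1β rose there from 5.88 and 4.18 to 33.9 and 13.7 (2.18 ± 0.61, adjusted p = 0.014), a call lost without KLA replicate 1 or vehicle replicate 2 (1.46 to 2.75). Farther on, inside the noncoding gene Gm12216, factors were both lost and gained. At +24.6 kb HDAC3 fell from 48.0 and 44.8 to 7.62 and 5.27 (-2.74 ± 0.58, adjusted p = 1.9e-05) and NCoR from 45.4 and 55.3 to 11.3 and 4.84 (-2.65 ± 0.51, adjusted p = 0.0021). Both calls held without any 1 library and with TMM. At +35.5 kb p65 rose from 2.63 and 8.39 to 30.7 and 19.8 (2.20 ± 0.65, adjusted p = 0.011) and p300 from 5.01 and 5.26 to 22.5 and 17.8 (1.96 ± 0.52, adjusted p = 0.0038). Both were lost without either KLA library (1.58 to 3.22 and 1.78 to 2.12), and the p65 call also with TMM (1.01). In the same intron p65 was called higher at +26.5 kb (1.36 ± 0.52) and p300 at +33.5 kb (1.91 ± 0.59), each lost with TMM or without either KLA library, and p300 was called lower at +23.7 kb (-1.62 ± 0.44), a call lost without KLA replicate 2.

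IRF2 opposes IRF1 at shared elements, and 4 sites of its locus were called lower with KLA in 3 or more of the factor comparisons. The share over all genes was counted only for 4 or more comparisons. At that cutoff 2.42% of the sites of the 9 genes were called lower, near the 2.11% over all genes. At the Irf2 +52.4 kb peak NCoR fell from 82.4 and 75.3 to 4.05 and 5.53 tags (-4.00 ± 0.44, adjusted p = 0.00013) and HDAC3 from 45.8 and 49.2 to 8.21 and 12.3 (-2.29 ± 0.55, adjusted p = 0.00017). PU.1, whose letters occur there 3 times, fell from 58.4 and 54.8 to 9.16 and 10.2 (-2.54 ± 0.26, adjusted p = 2.7e-16), the PU.1 change with the lowest p in that direction at these loci. PGC1β fell from 19.4 and 16.7 to 0 and 3.43 (-3.03 ± 0.77, adjusted p = 0.0075), a call lost without either vehicle library (-7.85 to -2.37). In the other 3 factors the libraries with KLA were all below those with vehicle and the calls held without any 1 library.

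Beyond the 3′ end of Irf2, at +112.8 kb, 6 of 8 regions were called lower. p300 fell from 148 and 124 to 31.7 and 39.5 tags (-1.93 ± 0.22, adjusted p = 1.8e-06), NCoR from 102 and 82.4 to 23.5 and 23.5 (-1.96 ± 0.32, adjusted p = 0.0009), HDAC3 from 115 and 124 to 19.3 and 33.4 (-2.27 ± 0.42, adjusted p = 5.8e-07) and PGC1β from 51.7 and 63.7 to 6.55 and 14.9 (-2.33 ± 0.42, adjusted p = 0.00065). These 4 calls held without any 1 library and with TMM. At +111.0 kb 5 of 8 regions were called lower, p300 from 89.0 and 76.2 to 18.9 and 17.3 (-2.18 ± 0.28, adjusted p = 6.4e-06) and p65 from 53.4 and 43.8 to 15.4 and 10.9 (-1.88 ± 0.43, adjusted p = 0.003). The p65 call was lost without KLA replicate 2 (-2.14 to -1.66).

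Gains at Irf2 were found in its introns, near its start and, for p65, beyond its 3′ end. At +64.5 kb p65 rose from 4.38 and 5.59 to 57.4 and 69.8 tags (3.65 ± 0.48, adjusted p = 7.8e-05) and p300 from 8.78 and 7.88 to 38.4 and 40.5 (2.23 ± 0.41, adjusted p = 0.00021), and both calls held without any 1 library and with TMM. At +0.5 kb, annotated to the promoter of the neighbouring gene Gm16675, NCoR went from 8.36 and 28.2 to 55.9 and 47.0 (1.48 ± 0.50, adjusted p = 0.032). That call was lost without KLA replicate 1 or 2 or vehicle replicate 1 (0.86 to 2.60). Fosl2 fell at +105.4 kb from 116 and 96.5 to 11.6 and 16.4 (-2.88 ± 0.91, adjusted p = 0.015), the called Fosl2 loss at these loci, and this call was lost without either vehicle library (-3.17 to -2.68). The p65 region at the Irf2 TSS held 108.6 and 144 with vehicle and 119 and 166 with KLA (0.17 ± 0.25, adjusted p = 0.56), and with TMM its sign turned to -1.05. At +112.0 kb, between the sites with losses, p65 rose from 57.8 and 96.9 to 159.6 and 194 (1.19 ± 0.27, adjusted p = 0.0029), a call lost without KLA replicate 2 or vehicle replicate 1 (0.86 to 1.61) and with TMM, where the sign turned (-0.02).

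IRF7 is the amplifier of the type I interferon response, and NCoR and HDAC3 both rose at its promoter and both fell upstream of it. At the Irf7 promoter NCoR went from 3.58 and 8.24 to 48.6 and 43.6 tags (2.93 ± 0.53, adjusted p = 0.0015) and HDAC3 from 2.18 and 8.85 to 35.8 and 80.8 (3.25 ± 0.57, adjusted p = 1.5e-07). Both calls held without any 1 library. At -2.6 kb, by the 3′ end of the neighbouring gene Cdhr5, NCoR fell from 277 and 339 to 139 and 145 (-1.12 ± 0.19, adjusted p = 0.0011) and HDAC3 from 362 and 296 to 128 and 191 (-1.06 ± 0.38, adjusted p = 0.016). The NCoR call there was lost without vehicle replicate 2 (-1.26 to -0.97) and the HDAC3 call without KLA replicate 1 or either vehicle library (-1.35 to -0.78).

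Other factors were present at Irf7 -2.6 kb with no called change. PU.1 held 279 and 293 with vehicle and 220.5 and 221 with KLA (-0.37 ± 0.09, adjusted p = 0.00011), p300 held 91.5 and 84.8 with vehicle and 64.5 and 74.6 with KLA (-0.34 ± 0.21, adjusted p = 0.16), and p65 held 77.9 and 102 with vehicle and 66.8 and 117 with KLA (0.03 ± 0.31, adjusted p = 0.93), with -1.20 by TMM. PGC1β rose at +0.4 kb from 4.70 and 7.44 to 27.3 and 29.7 tags (2.20 ± 0.51, adjusted p = 0.0042) and with DMSO from 10.6 and 5.83 to 45.4 and 25.3 (2.01 ± 0.64, adjusted p = 0.028). The first of these was lost without vehicle replicate 1 (1.93 to 2.58) and the other with TMM or without DMSO KLA replicate 1 or either DMSO vehicle library (1.55 to 2.54). At +1.4 kb p300 fell from 58.9 and 46.0 to 19.4 and 19.5 (-1.43 ± 0.32, adjusted p = 0.0012).

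IRF9 and STAT2 are subunits of ISGF3, and most regions of both genes lay close to the TSS. HDAC3 at the Stat2 promoter went from 30.6 and 22.7 to 48.1 and 132 tags (1.70 ± 0.42, adjusted p = 0.00028), with replicate 2 far above replicate 1 under KLA, and this call was lost without KLA replicate 2 or either vehicle library (0.87 to 2.32). p65 there went from 15.8 and 48.5 to 72.8 and 82.8 (1.28 ± 0.44, adjusted p = 0.024), lost with TMM (0.08) or without either KLA library or vehicle replicate 1 (0.68 to 2.30). NCoR at the Stat2 promoter had 28.7 and 25.9 with vehicle and 46.2 and 36.7 tags with KLA (0.60 ± 0.39, adjusted p = 0.23), PGC1β with DMSO 16.2 and 27.7 with vehicle and 29.6 and 49.1 with KLA (0.88 ± 0.58, adjusted p = 0.32) and p300 40.7 and 54.5 with vehicle and 44.0 and 47.0 with KLA (-0.06 ± 0.28, adjusted p = 0.85). None of these was called.

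At the Irf9 promoter HDAC3 rose at chr14:55604337-55604576 from 34.9 and 30.4 to 56.9 and 100.1 tags (1.23 ± 0.41, adjusted p = 0.01), a call lost with TMM (0.92) or without KLA replicate 2 or either vehicle library (0.81 to 1.62). No other factor was called at Irf9 at the listed totals. NCoR held 33.5 and 48.3 with vehicle and 81.0 and 46.3 with KLA (0.63 ± 0.38, adjusted p = 0.19), p65 held 70.9 and 66.2 with vehicle and 94.8 and 87.6 with KLA (0.41 ± 0.26, adjusted p = 0.19) and p300 held 77.7 and 106 with vehicle and 68.5 and 67.6 with KLA (-0.43 ± 0.22, adjusted p = 0.097).

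STAT3 carries IL-6 and IL-10 signals, and called changes at its locus with KLA were all gains at the listed library totals, most of them in its first intron. At +7.8 kb 6 of 7 regions were called higher. NCoR went from 4.78 and 17.7 to 83.4 and 89.9 tags (2.93 ± 0.47, adjusted p = 0.0008), p300 from 24.4 and 30.9 to 83.9 and 81.1 (1.58 ± 0.26, adjusted p = 8.2e-05) and HDAC3 from 29.1 and 32.1 to 91.4 and 93.1 (1.59 ± 0.40, adjusted p = 0.00044). The NCoR and p300 calls held without any 1 library, and the HDAC3 call was lost without either vehicle library (1.52 to 1.66). p65 rose there from 76.2 and 83.9 to 167 and 227 (1.30 ± 0.24, adjusted p = 0.00076), a call lost with TMM (0.07) or without KLA replicate 2 (1.06 to 1.504).

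PGC1β at Stat3 +7.8 kb went from 20.6 and 10.7 to 62.3 and 26.3 tags (1.47 ± 0.47, adjusted p = 0.029), with replicate 1 above replicate 2 under KLA, and this call was lost without KLA replicate 1 or vehicle replicate 2 (0.77 to 2.02). At +5.5 kb p300 went from 0 and 2.63 to 55.8 and 78.4 (5.63 ± 0.59, adjusted p = 7.2e-07) and p65 from 4.38 and 15.8 to 90.8 and 94.4 (3.20 ± 0.47, adjusted p = 0.00017). At -7.4 kb p65 went from 0 and 0.932 to 42.7 and 50.6 (6.41 ± 0.82, adjusted p = 6.6e-05) and p300 from 3.76 and 0 to 43.5 and 53.5 (4.61 ± 0.62, adjusted p = 1.1e-05). In these 4 the vehicle libraries were near 0 or low and the KLA libraries high, and the calls held without any 1 library and with TMM.

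NCoR also rose upstream of Stat3, at chr11:100952421-100952646, from 9.56 and 7.06 to 49.4 and 56.0 tags (2.65 ± 0.45, adjusted p = 0.0012). At the Stat3 promoter p65 went from 26.3 and 44.7 to 74.8 and 78.0 (1.11 ± 0.35, adjusted p = 0.015). That direction depends on the scaling, since TMM gave -0.10, and the call was lost without either KLA library or vehicle replicate 1 (0.77 to 1.54). NCoR at the promoter held 45.4 and 48.3 with vehicle and 41.3 and 47.7 with KLA (-0.07 ± 0.33, adjusted p = 0.88).

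STAT5A carries GM-CSF signals, and all 6 regions listed at its +1.5 kb intronic site were called higher. p65 went from 3.502 and 9.32 to 159 and 156 tags (4.61 ± 0.40, adjusted p = 4.6e-06), p300 from 2.51 and 7.23 to 62.9 and 82.7 (3.90 ± 0.43, adjusted p = 1.1e-06) and HDAC3 from 1.45 and 4.42 to 49.8 and 45.7 (3.92 ± 0.65, adjusted p = 2.3e-08). Fosl2, whose AP-1 letters stand in the sequence shown for this site, went from 5.64 and 1.05 to 62.8 and 119 (4.79 ± 1.06, adjusted p = 0.0002). The first 3 calls held without any 1 library and with TMM, and the Fosl2 call was lost without either vehicle library (3.98 to 6.24).

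NCoR at Stat5a +1.5 kb went from 0 and 8.24 to 48.6 and 41.5 tags (3.40 ± 0.74, adjusted p = 0.0041) and PGC1β with DMSO from 4.87 and 0 to 43.4 and 17.9 (3.31 ± 0.93, adjusted p = 0.014). The NCoR call was lost without KLA replicate 1 (2.43 to 8.72), and that of PGC1β with TMM or without DMSO KLA replicate 1 or DMSO vehicle replicate 2 (2.56 to 7.32). At the Stat5a promoter p65 rose from 11.4 and 17.7 to 78.8 and 80.7 (2.45 ± 0.38, adjusted p = 0.00025) and HDAC3 from 16.004 and 14.4 to 55.7 and 79.0 (2.12 ± 0.47, adjusted p = 3.8e-05), the latter lost without either vehicle library (1.88 to 2.38). NCoR rose there from 33.5 and 18.8 to 66.4 and 58.8 (1.26 ± 0.38, adjusted p = 0.02), lost without either KLA library or vehicle replicate 2 (0.90 to 1.72).

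ERK is a kinase of the TLR4 pathway, and its inhibitor was tested on NCoR and on PGC1β binding with KLA. NCoR was called lower at 18 and higher at 1 of 72 regions of these genes, against 48.6% and 0.634% of all NCoR regions, and the median was -0.81 against -1.20 over all. The NCoR libraries with the inhibitor carry another date code in the labels than those with KLA alone, and no NCoR library had DMSO, so the inhibitor, the solvent and the date cannot be told apart. The KLA libraries are those of the comparison with vehicle above, counted over regions merged with the inhibitor. TMM moved the median of all regions by 1.16 and gave 3 members higher and 0 lower. At the listed totals 32 of the 72 regions had an unadjusted p under 0.05, and DESeq2 called 3.

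At the Irf1 promoter, in regions merged over the 3 groups, NCoR held 86.0 and 88.3 tags with vehicle, 201 and 182 with KLA and 99.8 and 76.7 with the inhibitor and KLA (-1.12 ± 0.22, adjusted p = 0.0015). The libraries with the inhibitor overlapped those with vehicle, but TMM gave 0.05, the other sign, and the call was lost without ERKi KLA replicate 2 (-1.32 to -0.94). At Irf4 +70.9 kb the same groups held 28.7 and 49.4, then 147 and 157, then 54.9 and 50.0 tags (-1.53 ± 0.29, adjusted p = 0.00095, and -0.37 with TMM). At Irf7 +1.4 kb they held 63.3 and 77.7, then 66.4 and 67.1, then 18.6 and 13.8 (-2.04 ± 0.37, adjusted p = 0.0008, and -0.88 with TMM), the NCoR loss with the lowest p of this comparison at these loci. Both calls held without any 1 library.

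One region went the other way. At Irf2 +52.4 kb, where NCoR was low after KLA, it held 4.05 and 5.53 tags with KLA and 16.1 and 23.3 with the inhibitor and KLA (2.00 ± 0.53, adjusted p = 0.0071), and 82.4 and 75.3 with vehicle. TMM gave 3.16, and the call was lost without KLA replicate 1 (1.71 to 2.25).

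**Figure D3:**
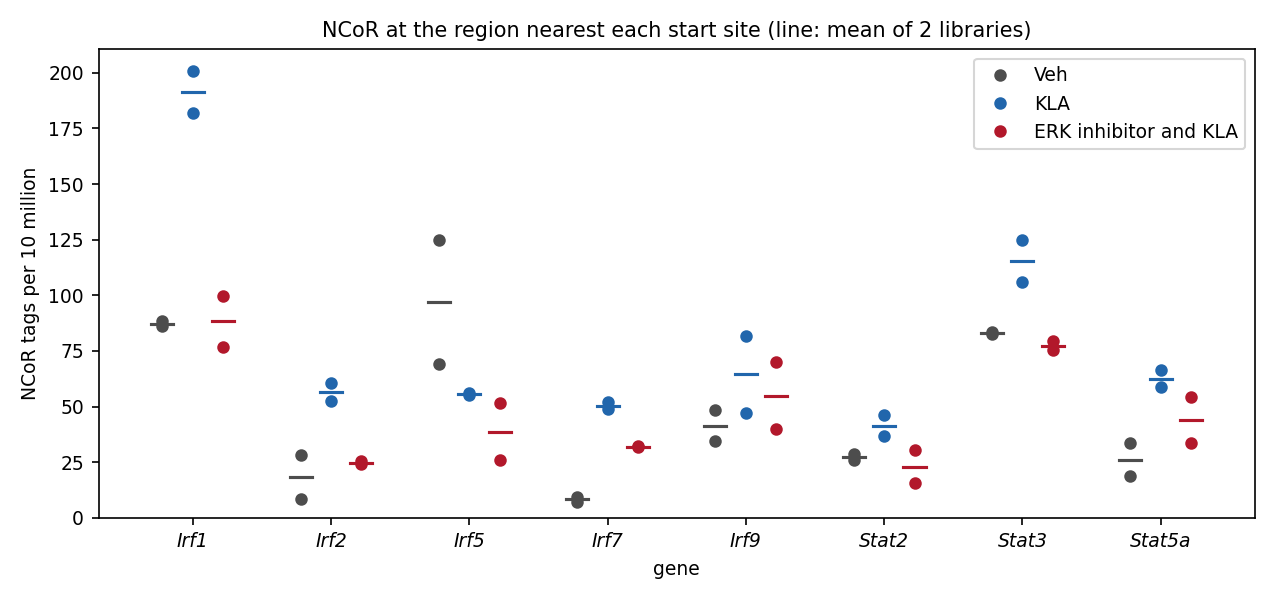
NCoR tags per 10 M (y axis) at the region nearest the start site of each gene (x axis; Irf4 has none within 2 kb) with vehicle, KLA, or ERK inhibitor and KLA, each point a library. At Irf1 the 2 KLA libraries (201 and 182) stand above those with vehicle (86.0 and 88.3) and with the inhibitor (99.8 and 76.7).

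PGC1β with the inhibitor was compared with DMSO and KLA in libraries of the same experiment. It was called higher at 1 of 62 regions and lower at none, against 0.108% and 0.178% of all PGC1β regions, and the median was 0.14 against -0.20. For the count of 0, 7 of the 62 had an unadjusted p under 0.05 with edgeR, and TMM called none in either direction. The called region was Irf1 +9.8 kb, which had no tag in either DMSO KLA library and 43.8 and 45.3 with the inhibitor, at least 17.5-fold higher against a floor of 3 tags over the DMSO KLA group (adjusted p = 0.048). The call was lost when any one of the 6 libraries of the table was left out, and with TMM.

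The neighbouring regions downstream of Irf1 had more PGC1β with KLA, and the values with the inhibitor were higher still without passing the test. At +8.5 kb PGC1β held 3.25 and 4.37 tags with DMSO, 53.3 and 26.8 with DMSO and KLA (3.36 ± 0.65, adjusted p = 0.00071) and 109.5 and 109.9 with the inhibitor (1.47 ± 0.49, adjusted p = 0.17). At +10.4 kb it held 2.44 and 4.37, 33.6 and 44.7 (3.55 ± 0.72, adjusted p = 0.001) and 70.4 and 55.6 (0.68 ± 0.55, adjusted p = 0.61). Both gains with KLA held without any 1 library and with TMM. At +9.0 kb the inhibitor libraries held 92.3 and 81.5 tags against 11.8 and 29.8 with DMSO and KLA (2.02 ± 0.58, adjusted p = 0.11), and here too the groups did not overlap.

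**Figure D4:**
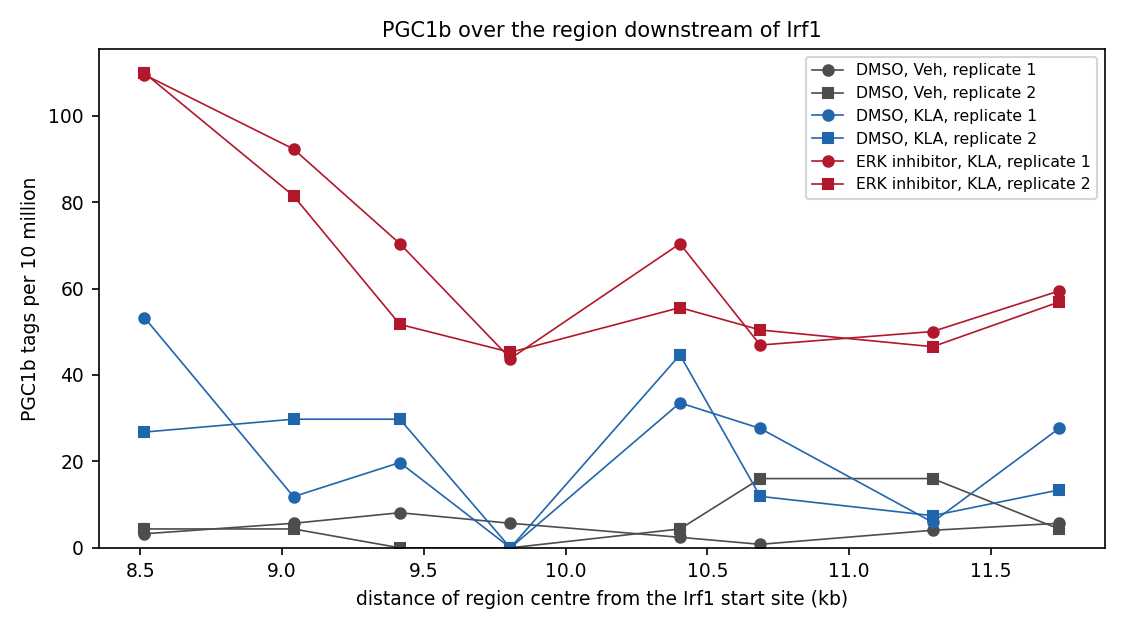
PGC1b tags per 10 M (y axis) at the 8 regions from 8.5 to 11.7 kb downstream of the Irf1 start site (x axis, region centre) in each of 6 libraries with DMSO, DMSO and KLA, or ERK inhibitor and KLA. The inhibitor libraries reach 109.9 at +8.5 kb, and at +9.8 kb both DMSO KLA libraries are at 0.

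H3K27ac rose with KLA near the starts of Irf7 and Irf9 in both WT and NKO cells, and was called higher at the Stat3 promoter in WT and at Irf1 and Irf2 in NKO. Of the 27 member regions counted in WT and NKO cells, 23 passed the filter of 16 tags in at least 1 library. Among these 5 rose and 0 fell in WT, against 6.49% and 3.72% of all regions (median 0.43 against 0.13). In NKO 4 rose and 0 fell, against 2.75% and 7.96% (median 0.19 against -0.20). For these counts of 0, 9 and 11 of the 23 regions had an unadjusted p under 0.05 with edgeR in either direction, and TMM called 4 and 5 higher and 0 lower. At the Irf9 promoter the mark went from 22.1 and 16.8 to 64.1 and 59.3 in WT (1.67 ± 0.30, adjusted p = 4.1e-05) and from 33.9 and 41.8 to 58.4 and 70.8 in NKO (0.76 ± 0.28, adjusted p = 0.055), which was not called. The neighbouring Irf9 region at -0.4 kb went from 10.7 and 19.9 to 39.0 and 44.8 in WT (1.43 ± 0.36, adjusted p = 0.0042) and from 16.2 and 24.4 to 45.7 and 41.0 in NKO (1.08 ± 0.36, adjusted p = 0.032). These calls were lost without WT vehicle replicate 1 in WT, and without NKO vehicle replicate 1 or either NKO KLA library in NKO (0.83 to 1.42). At the Irf7 promoter it went from 18.9 and 17.8 to 51.6 and 82.7 in WT (1.86 ± 0.31, adjusted p = 1.8e-05) and from 29.5 and 18.0 to 70.1 and 61.1 in NKO (1.49 ± 0.31, adjusted p = 0.0005). The responses of the 2 genotypes at the Irf9 and Irf7 promoters showed no called difference by the interaction test (-0.92 ± 0.41, adjusted p = 0.29 and -0.38 ± 0.44, adjusted p = 0.76). Irf7 -2.6 kb went from 13.2 and 7.64 to 31.4 and 32.4 in WT (1.62 ± 0.47, adjusted p = 0.013), which was called. In NKO it went from 3.69 and 7.5 to 12.2 and 12.5 (1.09 ± 0.55, adjusted p = 0.19), not called. NKO against WT with KLA was -1.36 ± 0.47 there (adjusted p = 0.14) and the interaction -0.53 ± 0.74 (adjusted p = 0.8), neither called.

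The Stat3 promoter rose in WT from 17.02 and 13.2 to 28.3 and 40.0 (1.17 ± 0.40, adjusted p = 0.039), a call lost with TMM or without WT KLA replicate 2 or either WT vehicle library (0.91 to 1.41). Stat5a was past the p threshold but under 2-fold in both, with 0.99 ± 0.29, adjusted p = 0.013 in WT and 0.81 ± 0.28, adjusted p = 0.044 in NKO. The Stat2 region of this table, chr10:128270297-128270579, held few tags, 7.57 and 4.07 with vehicle and 12.6 and 4.14 with KLA in WT. Its change (0.54 ± 0.78, adjusted p = 0.71) was not called. With PGC1b and RGFP966 below, the wider window chr10:128269956-128270956 was counted, so the tags are not of like regions.

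Between genotypes the difference with vehicle was called at 0 of 23 regions in either direction (edgeR; 3 with an unadjusted p under 0.05, and 0 with TMM), against 0.973% and 0.027% of all. With KLA, NKO was above WT at 1 region and below at 0, against 0.4% and 0.389%, and the KLA response differed at 1 region higher and 0 lower, against 0.027% and 0.67%. For the counts of 0 lower, 4 of the 23 regions in each comparison had an unadjusted p under 0.05 with edgeR in either direction, and TMM called 1 higher and 0 lower in each. Both calls concern the Irf1 region at chr11:53770348-53770668, downstream of the p65 and NCoR promoter peak. H3K27ac there went from 59.9 and 51.9 tags with vehicle to 88.0 and 66.2 with KLA in WT cells, while NKO cells went from 51.6 and 42.9 to 193 and 169. The 2 NKO libraries with KLA stood far above the other 6. The change was 0.47 ± 0.21, adjusted p = 0.13 in WT and 1.95 ± 0.21, adjusted p = 2.6e-09 in NKO, and the interaction was 1.47 ± 0.29, adjusted p = 0.0075. The interaction call was lost without NKO KLA replicate 1, WT KLA replicate 2 or either WT vehicle library (1.29 to 1.70), and TMM gave 1.81 and kept it. The other Irf1 promoter region, chr11:53769745-53770016, held 18.9 and 11.7 and then 13.2 and 13.8 in WT, and 27.3 and 24.4 and then 21.8 and 10.4 in NKO (-0.48 ± 0.64, adjusted p = 0.78 for the interaction).

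In the PGC1b table the tags were counted in windows of 1000 bp. In PGC1b flox/flox cells 4 of 16 regions rose and 1 fell, against 5.22% and 25.6% of all (median 0.37 against -0.45), and with LysMCre 4 rose and 2 fell, against 4.18% and 32.5% (median 0.16 against -0.62). TMM moved the 2 medians of all regions by 0.43 and 0.61 and gave 5 and 0 in the former and 7 and 0 in the latter. At Irf7 -2.6 kb, where NCoR and HDAC3 fell with KLA, the mark went from 24.7 and 26.3 to 319 and 303 in PGC1b flox/flox cells (3.61 ± 0.18, adjusted p = 2.1e-78). With LysMCre it went from 38.0 and 18.6 to 149.5 and 114 (2.20 ± 0.19, adjusted p = 1.7e-27).

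The Stat2 promoter went from 149 and 184 to 468 and 412 tags (1.41 ± 0.10, adjusted p = 1.0e-40), and with LysMCre from 125 and 111 to 364 and 367 (1.63 ± 0.11, adjusted p = 2.0e-45). The Irf9 promoter window at chr14:55603562-55604562 went from 171 and 211 to 437 and 428 (1.19 ± 0.10, adjusted p = 8.3e-32) and with LysMCre from 165 and 164 to 385 and 365 (1.19 ± 0.10, adjusted p = 3.2e-29). At both promoters the KLA libraries of each genotype were all above the vehicle libraries, and the responses of the genotypes showed no called difference by the interaction test (0.21 ± 0.15, adjusted p = 0.38 and 0.00 ± 0.13, adjusted p = 1).

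Between these genotypes 0 of 16 regions were called with vehicle (edgeR; 6 with an unadjusted p under 0.05, and 0 with TMM), against 0.107% and 0.29% of all. With KLA, LysMCre was lower at 2 and higher at 0, against 6.81% and 0.702%, and the KLA response differed at 2 lower and 0 higher, against 4.6% and 0.77%. For the counts of 0 higher, 13 and 9 of the 16 regions had an unadjusted p under 0.05 in either direction, and TMM called 0 higher in both. The same 2 regions were called in both comparisons, Irf7 -2.6 kb with -1.24 ± 0.14, adjusted p = 1.1e-16 under KLA and an interaction of -1.41 ± 0.29, adjusted p = 2.8e-05, and Irf2 +112.0 kb, the window that holds the p65 peak of that name. At the latter H3K27ac went from 468 and 560.5 to 341 and 387 tags in PGC1b flox/flox cells (-0.49 ± 0.08, adjusted p = 6.5e-09) and with LysMCre from 520.1 and 475 to 169.7 and 171 (-1.54 ± 0.09, adjusted p = 5.8e-57), an interaction of -1.05 ± 0.12, adjusted p = 5.3e-15.

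TMM moved the median of all regions by 0.39 for the genotypes under KLA and by 0.19 for the interaction. It gave -1.22 for the interaction at Irf7, still called, -0.87 for that at Irf2 and -0.93 for its loss with LysMCre, neither of them called, while under KLA neither was called (-0.85 and -0.70). The interaction at Irf7 was lost without LysMCre vehicle replicate 1 (-1.82 to -0.79), the vehicle library with 38.0 tags. The interaction at Irf2 was lost without LysMCre vehicle replicate 1, flox KLA replicate 2 or flox vehicle replicate 1 (-1.18 to -0.92), and the difference under KLA there without flox KLA replicate 2 (-1.18 to -0.9997).

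The HDAC3 inhibitor RGFP966 was compared with DMSO, both with KLA. With DMSO, KLA raised 4 and lowered 1 of 16 regions, against 6.73% and 28.1% of all (median 0.38 against -0.42), and RGFP966 against DMSO under KLA raised 2 and lowered 1, against 26.9% and 9.53% (median -0.44 against 0.39). Members and all regions thus had medians of opposite sign, in both comparisons. TMM moved the medians of all regions by 0.42 and -0.34 and gave 7 and 0 in the former and 2 and 7 in the latter. At the Stat2 promoter the mark went from 95.5 and 97.7 to 481 and 378 with KLA (2.15 ± 0.21, adjusted p = 4.4e-22) and was 205 and 161 with RGFP966 and KLA (-1.23 ± 0.20, adjusted p = 9.2e-09). The libraries with RGFP966 lay between the other 2 groups, and both calls held without any 1 library.

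At other members the values with RGFP966 were also below those with DMSO and KLA. Irf7 -2.6 kb held 37.4 and 41.9 tags with DMSO, 422 and 364 with KLA (3.31 ± 0.24, adjusted p = 1.8e-40) and 235 and 206 with RGFP966 and KLA (-0.83 ± 0.20, adjusted p = 9.0e-05, under 2-fold). The Irf9 promoter held 210.1 and 205, 485 and 376 (1.06 ± 0.20, adjusted p = 6.3e-07) and 247 and 209 (-0.92 ± 0.20, adjusted p = 1.2e-05), and its gain with KLA was lost without DMSO KLA replicate 1 (0.86 to 1.22). The Stat3 promoter held 67.3 and 57.6, 219.5 and 173 (1.65 ± 0.24, adjusted p = 2.6e-11) and 124 and 108 (-0.76 ± 0.22, adjusted p = 0.0012). The same Stat3 window had means of 201 with vehicle and 255 with KLA in PGC1b flox/flox cells, and of 121 and 214 with LysMCre. The Irf1 promoter window here, chr11:53769447-53770447, only partly overlaps the Irf1 region of the NKO result, chr11:53770348-53770668. In this window RGFP966 libraries lay below both others, with 240.0 and 231, then 361 and 316, then 182 and 159.9 tags (-0.98 ± 0.20, adjusted p = 5.1e-06). These 4 values for RGFP966 passed the p threshold and stayed under 2-fold at the listed totals. With TMM more members were called lower in this comparison, as counted above.

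RGFP966 raised the mark at Irf4 -10.6 kb, from 23.3 and 24.4 to 77.0 and 73.2 tags (1.65 ± 0.29, adjusted p = 6.8e-08), above the 34.1 and 46.2 tags with DMSO and vehicle. This is the site where NCoR and p300 fell with KLA. At Irf2 +6.0 kb it went from 20.1 and 10.1 to 50.0 and 46.1 (1.62 ± 0.34, adjusted p = 6.7e-06). Both calls held without any 1 library and with TMM. In the intron of Irf2 at +71.7 kb the mark fell with KLA, from 156 and 147 to 85.5 and 61.4 with DMSO (-1.03 ± 0.23, adjusted p = 3.8e-05), a call lost with TMM (-0.61) or without DMSO KLA replicate 2 or DMSO vehicle replicate 1 (-1.30 to -0.82). The PGC1b table gave -1.29 ± 0.15 in flox/flox cells there, and -0.86 with TMM, not called.

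**Figure D5:**
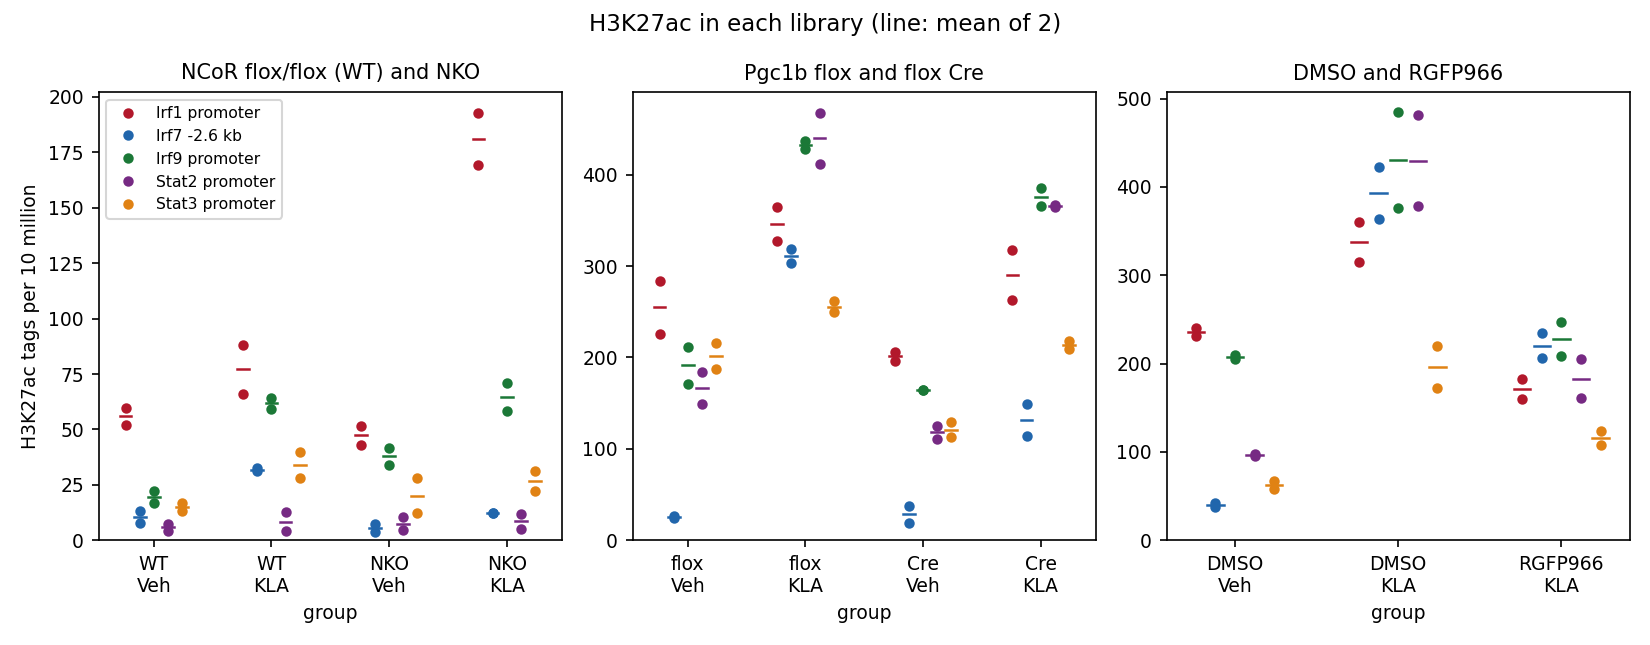
H3K27ac tags per 10 M (y axis, a different scale in each panel) in each library (points, with lines at the mean of 2) at the Irf1, Irf9, Stat2 and Stat3 promoters and Irf7 -2.6 kb, by group (x axis) in the 3 tables. The regions differ between panels. For Irf1 the left panel shows chr11:53770348-53770668, which only partly overlaps the window chr11:53769447-53770447 used with PGC1b and RGFP966. In the left panel the Irf1 points of NKO with KLA (193 and 169) lie above all others of that gene, and in the right panel the points with RGFP966 and KLA lie below those with DMSO and KLA for all 5.

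On day 4 of osteoclast differentiation the called changes at these loci were all gains at the listed totals. For p300 a smaller share of these regions was called than of all regions. ERK1 rose at 1 and fell at 0 of 17 regions, against 2.33% and 0.0267% of all (median 0.78 against 1.00), and p300 rose at 6 and fell at 0 of 16, against 62.2% and 0.248% (median 0.90 against 1.84). For the counts of 0 lower, 7 regions in each table had an unadjusted p under 0.05 in either direction, and TMM called 0 and 1 lower. TMM moved the medians of all regions by -0.96 and -1.61, and with it no member was called higher in either table. p300 at the Stat3 +26.6 kb intronic region went from 0.879 and 2.13 to 32.3 and 24.95 tags (4.37 ± 0.86, adjusted p = 0.0014) and at Irf4 +43.2 kb from 7.03 and 6.39 to 52.8 and 32.9 (2.64 ± 0.67, adjusted p = 0.0053). Both calls were lost without either day 4 library (3.66 to 4.85 and 2.26 to 2.94). ERK1 at Stat3 -12.8 kb went from 7.75 and 5.25 to 35.8 and 45.4 (2.61 ± 0.69, adjusted p = 0.049), a call lost without day 0 replicate 2 or either day 4 library (2.37 to 2.92). The day 4 libraries of ERK1 differ in date code and in the NCoRWT mark, and the part of that in this value was not tested. p300 at the Irf9 promoter held 44.8 and 51.1 on day 0 and 28.4 and 15.9 on day 4 (-1.09 ± 0.53, adjusted p = 0.082).

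A list of 21 other genes of the pathway, from Ifnb1 and the interferon receptors through JAK kinases to Irf3, Irf8 and Usp18, was counted in the same way. NCoR rose at 44 and fell at 35 of 185 regions of these genes (23.8% and 18.9%, against 23.4% and 16.7% of all). HDAC3 rose at 54 and fell at 25 of 176 (30.7% and 14.2%, against 27.5% and 11.3%). p65 rose at 93 and fell at 10 of 168 (55.4% and 5.95%, against 57.0% and 5.43%). p300 rose at 76 and fell at 38 of 201 (37.8% and 18.9%, against 42.1% and 12.9%). PGC1β rose at 26 and fell at 6 of 116 (22.4% and 5.17%, against 16.4% and 6.35%). PU.1 rose at 12 and fell at 29 of 167 (7.19% and 17.4%, against 4.53% and 21.7%). At Usp18, the interferon-induced inhibitor of the interferon receptor, NCoR went from 1.19 and 0 tags with vehicle to 179.8 and 162 with KLA (7.92 ± 0.54, adjusted p = 2.6e-05). At Il6ra, the IL-6 receptor, NCoR fell from 304 and 360.2 to 35.6 and 34.6 (-3.24 ± 0.22, adjusted p = 2.6e-05).

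The H3K27ac counts over this list were 10 higher and 13 lower of 59 with KLA and DMSO, against 6.73% and 28.1% of all regions. They were 14 higher and 3 lower with RGFP966 against DMSO (23.7% and 5.08%, against 26.9% and 9.53%). At the Usp18 promoter the mark went from 61.5 and 68.9 to 626 and 506 with KLA (3.12 ± 0.22, adjusted p = 2.0e-41) and was 247 and 196 with RGFP966 (-1.35 ± 0.20, adjusted p = 1.3e-10). At Il6st, the signalling chain of the IL-6 receptor, a region 23.9 kb upstream fell from 430.2 and 426 to 57.6 and 44.6 with KLA (-3.05 ± 0.23, adjusted p = 2.9e-38) and was 286 and 247 with RGFP966 (2.37 ± 0.23, adjusted p = 6.2e-22). NCoR with the ERK inhibitor was lower at 93 and higher at 0 of 194 regions of the list. The share lower, 47.9%, is near the 48.6% of all NCoR regions. In the WT and NKO table the list had 5 higher and 3 lower of 48 with KLA in WT (10.4% and 6.25%, against 6.49% and 3.72%) and 5 and 2 in NKO (10.4% and 4.17%, against 2.75% and 7.96%).

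Peaks of HDAC3 and PGC1β lay near many NCoR peaks of the 9 loci. Of the 68 NCoR peaks, 35 (51.5%, 95% Clopper-Pearson interval 39.0% to 63.8%, counting error only) had both an HDAC3 and a PGC1β peak with centres within 500 bp, against 49.3% of all NCoR peaks. That interval treats the peaks as independent, though 25 of them lie at Irf2. HDAC3 alone was near 57 of 68 (83.8% against 80.4% of all), PGC1β near 36 (52.9% against 53.1%), p300 near 56 (82.4% against 81.3%) and p65 near 52 (76.5% against 73.4%). PU.1 peaks were near 53 (77.9% against 63.3% of all), Fosl2 near 38 (55.9% against 52.1%) and ERK1 near 26 (38.2% against 44.6%). The share with both HDAC3 and PGC1β was 5 of 6 at Irf7, 4 of 6 at Irf1, 15 of 25 at Irf2 and 2 of 2 at Irf9. It was 4 of 10 at Irf4, 3 of 8 at Irf5, 2 of 8 at Stat3, 0 of 1 at Stat2 and 0 of 2 at Stat5a.

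The PU.1 letters were found in more of the member peaks that fell than of those that rose for NCoR, HDAC3 and p300. All 11 NCoR peaks of these loci that fell with KLA hold GAGGAA in the 200 bases around their centre, where 49.6% of all fallen NCoR peaks do, and 6 of the 19 that rose hold it, against 33.3% of all that rose. For HDAC3 it was in 6 of 6 fallen peaks (51.3% of all fallen) and in 5 of 19 risen ones (33.4% of all risen). p300 peaks that fell held it in 12 of 17 cases (47.3% of all fallen) and those that rose in 4 of 20 (31.9% of all risen). The kappaB letters were in 5 of the 29 p65 peaks that rose, against 18.9% of all risen p65 peaks, and in 0 of 6 that fell, against 9.79%. These are the same sites counted under several antibodies, and no test was made of the shares.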

How the data were processed

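The deposited files are tag counts per region, 15 tables with 74 count columns of 70 libraries in 35 groups of 2; the 30 input samples in the labels were not analysed here. The authors aligned reads to mm10 with Bowtie2, called peaks with HOMER and IDR, merged them across conditions and counted unnormalised tags per region, with H3K27ac counted over ATAC-seq peaks. Tool versions are not given in the sources used here. Factors were fixed with DSG and formaldehyde and H3K27ac with formaldehyde alone. The labels call the libraries biological replicates, and where they are not separate animals the p-values measure only the spread between libraries.

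Counts were fitted per table with edgeR 4.0.16 (R 4.3.3) by the quasi-likelihood test, with a term for each group, the header totals as library sizes and no further scaling. Regions needed 4 tags (factors) or 16 tags (H3K27ac) in at least 1 library. P-values were adjusted by Benjamini-Hochberg over all tested regions of a table. Alternatives were TMM scaling, DESeq2 1.42.0, no filter, a replicate block and leaving out each library. The fits were tested on simulated data. Summaries used Python 3.11.15. Standard errors are the absolute log2 fold change divided by the square root of F.

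Regions named were, per member and table, the one nearest the TSS within 2 kb and the one with the highest mean, and, per comparison, the called one with the lowest p in each direction. For the other 21 genes values are given only by the last rule, and some results are not reported here. Other regions, and the grouping into sites, were chosen after their values were seen. The members and lists were chosen with earlier results of these data known. Sequences and gene models are from RefSeq GRCm38. Library totals were 4.296 to 21.5 M tags.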

Additional observations from a re-analysis of the deposited data

Results flagged for a closer look

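At 3 regions the response of H3K27ac to KLA differed between genotypes by the interaction term of edgeR's quasi-likelihood test. At the Irf1 promoter region chr11:53770348-53770668 the log2 response of NCoR flox/flox, LysMCre cells was above that of NCoR flox/flox cells by 1.47 ± 0.29 (adjusted p = 0.0075). At the region 2.6 kb upstream of Irf7 the log2 response of PGC1b flox/flox, LysMCre cells differed from that of PGC1b flox/flox cells by -1.41 ± 0.29 (adjusted p = 2.8e-05). At Irf2 +112.0 kb, chr8:46851295-46852295, the difference was -1.05 ± 0.12 (adjusted p = 5.3e-15). Each of these calls was lost when at least 1 library was left out, which for Irf7 was LysMCre vehicle replicate 1, without which the value was -0.79.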

How the results depend on the processing

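Counts of called regions are given here for both directions together. With TMM scaling the count went to 0 for ERK1 on day 4 (from 1), 9 for Fosl2 (from 3), 0 for the PGC1b genotypes under KLA (from 2), 1 for their interaction (from 2), 9 for RGFP966 (from 3), 3 for NCoR with the ERK inhibitor (from 19), 6 for PGC1β with DMSO (from 12), 0 for PGC1β with the inhibitor (from 1) and 1 for p300 on day 4 (from 6). DESeq2 gave 0, 12, 0, 0, 9 and 3 for the first 6 of these, 1 for p300 on day 4, 2 for ERK1 with KLA (from 1) and 8 for KLA with DMSO in H3K27ac (from 5). DESeq2 gave no adjusted p for 2 regions of the interaction and 1 of p300 on day 4. The share of NCoR peaks near both HDAC3 and PGC1β was 38.2% within 100 bp, against 44.0% of all NCoR peaks. Within 1000 bp it was 52.9% against 54.7%. The side on which members lay relative to all peaks thus changed with the distance, and no test was made of these shares. The sign turned at the Irf1 promoter for NCoR with the inhibitor (0.050 with TMM, 0.062 with DESeq2), and for p65 at the promoters of Stat3 (-0.10 and -0.068) and Irf2 (-1.05 and -1.02) and at Irf7 -2.6 kb (-1.20 and -1.16). The cause was not tested.

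Replicate numbers did not pair the libraries (r of deviations -0.027 to 0.088 over 31 pairs of groups). With the replicate block the count was 0 for ERK1 with KLA, 0 for PGC1β with the inhibitor and 3 for p300 on day 4. Of the 228 calls, 198 were made alike with the block, 151 with TMM, 147 with DESeq2 and 91 without each library in turn. Removing the filter left all 305 results for named regions on their side of the threshold.

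Leaving out 1 library in turn gave 15 to 33 calls for NCoR (lowest without either KLA library), 9 to 27 for HDAC3 (vehicle replicate 2), 4 to 17 for PGC1β (vehicle replicate 2), 14 to 40 for p65 (KLA replicate 2) and 26 to 38 for p300. The range was 6 to 10 for PGC1β with DMSO (DMSO KLA replicate 1 or DMSO vehicle replicate 2), 8 to 24 for NCoR with the inhibitor (KLA replicate 1), 0 to 0 for PGC1β with the inhibitor (any library), 0 to 10 for Fosl2 (lowest without either vehicle library, highest without either KLA library), 0 to 3 for ERK1 with KLA (lowest without either KLA library, highest without either vehicle library) and 9 to 13 for PU.1. On day 4 it was 0 to 1 for ERK1 and 0 to 7 for p300 (either day 4 library in both). In H3K27ac it was 3 to 5 in WT (either WT vehicle library), 2 to 5 in NKO (either NKO KLA library), 0 to 1 for their interaction (4 libraries named with that result), 3 to 6 for RGFP966 (highest without DMSO KLA replicate 2 or RGFP966 replicate 1), 1 to 2 for the PGC1b genotypes under KLA (flox KLA replicate 2) and 0 to 2 for their interaction (LysMCre vehicle replicate 1).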
